A study of Dendroctonus valens with 12 samples.

Results

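The general transcription factors TFIID and TFIIF of the red turpentine beetle, *Dendroctonus valens*, were followed through 3 of the 58956 unigenes (transcript clusters assembled without a genome) for which FPKM values were deposited. The 3 unigenes were taken by name from the list that the study made of unigenes it called between January and May in both stages. TRINITY_DN15652_c0_g1 and TRINITY_DN22147_c0_g3 matched Drosophila TFIID subunits 12 and 6 (written TAF12 and TAF6 here), and TRINITY_DN23208_c0_g1 matched TFIIF subunit 1 (GTF2F1). These names rest on protein matches, since no beetle genome was used.

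Every library came from 1 whole insect taken in the field. The 4 groups of 3 insects were larvae collected in January (labelled cold), larvae collected in May (labelled normal), adults collected in January (cold) and adults collected in May (normal). The larvae were labelled as mature, and their sex is not given in the labels or methods. The study asked which genes differ between the cold month and the warm month, with the May insects as controls, so month, temperature and all else that differs between a January and a May beetle cannot be told apart.

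RNA polymerase II begins transcription from a promoter after the general transcription factors have assembled there. TFIID, made of the TATA-box-binding protein and the TAF subunits, recognises the core promoter first. TAF12 and TAF6 are both histone-fold subunits, and in yeast they also serve in SAGA, a co-activator complex that acetylates histones. In human and Drosophila SAGA a related protein takes the place of TAF6. TFIIF binds RNA polymerase II and escorts it to the promoter, and GTF2F1 is its larger subunit. All of these are held to be broadly used in animal cells.

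The levels of TAF12 and GTF2F1 ran in parallel through the 4 groups and were lowest in May larvae. TAF6 did not follow them, and its highest levels were in May adults. The unit throughout is FPKM as deposited, which counts fragments relative to the length of the unigene and to all mapped fragments of the library, so that levels of different unigenes can be set side by side per length.

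TAF12 was measured at 30.2, 16.9 and 16.5 FPKM in January larvae, against 0.68, 0.85 and 1.0 FPKM in May larvae. In adults it was at 58.8, 41.9 and 14.6 FPKM in January, against 7.87, 15.04 and 8.54 FPKM in May. The larval groups were far apart, whereas January adult 3 lay just under May adult 2. In order of level, January adults (mean 38.4 ± 22.3 FPKM, SD, n = 3) came first, followed by January larvae (21.2 ± 7.81), May adults (10.5 ± 3.96) and May larvae (0.843 ± 0.16). The neighbours January adults and January larvae overlapped, and the other neighbouring groups in this order did not.

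GTF2F1 was measured at 23.5, 7.44 and 14.5 FPKM in January larvae, against 0.67, 0.08 and 0.84 FPKM in May larvae. Adults had 38.0, 23.4 and 13.5 FPKM in January, against 5.69, 8.98 and 8.11 FPKM in May. January lay above May without overlap in both stages. The order of the groups was that of TAF12, with means of 24.95 ± 12.3 FPKM in January adults, 15.1 ± 8.03 in January larvae, 7.59 ± 1.705 in May adults and 0.53 ± 0.399 in May larvae (SD, n = 3 each). January adults and January larvae overlapped, as did January larvae and May adults, and May larvae stood below all others.

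TAF6 was measured at 2.86, 1.30 and 1.78 FPKM in January larvae, against 1.18, 3.22 and 1.65 FPKM in May larvae. Adults had 1.04, 2.42 and 1.16 FPKM in January, against 7.94, 6.14 and 5.69 FPKM in May. As deposited, May adults stood above the other 9 insects, which overlapped with one another whatever their group. Group means were 6.59 ± 1.19 FPKM in May adults, 2.02 ± 1.07 in May larvae, 1.98 ± 0.799 in January larvae and 1.54 ± 0.764 in January adults (SD, n = 3 each).

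**Figure D1:**
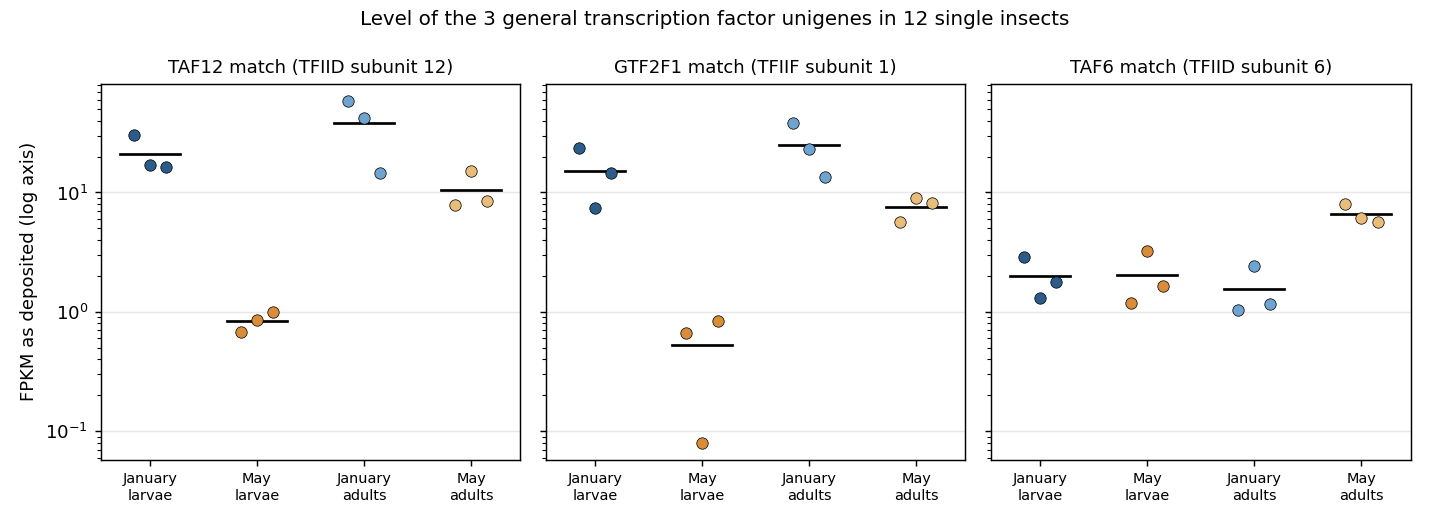
Level of the TAF12, GTF2F1 and TAF6 unigenes in FPKM (log axis) in each of 12 insects, by group. Points are single insects and lines are group means of 3 insects. TAF12 and GTF2F1 are at or below 1.0 FPKM in the 3 May larvae and at 5.69 FPKM or more in the other 9 insects, while TAF6 stands out in May adults at 5.69 to 7.94 FPKM.

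Position within a library gives the same picture without any scaling between libraries. Of the unigenes above 0 in a library, TAF12 exceeded 81.8 to 87.5% in January larvae, against 25.2 to 37.6% in May larvae, and 83.5 to 92.9% in January adults, against 80.2 to 85.5% in May adults. GTF2F1 exceeded 75.2 to 84.4% in January larvae, against 5.2 to 34.5% in May larvae, and 82.4 to 88.6% in January adults, against 75.9 to 79.6% in May adults. TAF6 exceeded 38.9 to 47.7% in January larvae, against 35.6 to 56.5% in May larvae. In adults the ranges for TAF6 were 25.4 to 45.1% in January, against 74.9 to 80.8% in May. By rank, then, May larvae were set apart for TAF12 and GTF2F1 and May adults for TAF6.

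The libraries differed in ways that touch these values. The number of unigenes at 1 FPKM or more was 15028 to 25771 in January larvae, against 8291 to 16681 in May larvae, and 24717 to 28292 in January adults, against 16595 to 21622 in May adults. The factors that would bring the libraries to a common median (median-of-ratios scaling) were 0.401 to 0.6005 in May larvae and 0.9293 to 1.6675 in the other 9 libraries. The 20 most abundant unigenes of a library held 27.5 to 42.6% of the FPKM in January larvae, against 35.0 to 63.6% in May larvae. The FPKM sum was 1788297 in May larva 3, against 1065219 to 1213897 in the other larvae. January larva 3 and May larva 1 shared 4823 unigenes that the other 4 larvae nearly lacked, holding 4.88% and 4.07% of their FPKM, and none of the 3 unigenes was among them. The same set held 3.02 to 9.51% of the FPKM in January adults, against 0.148 to 1.15% in May adults. Unigenes with a nematode match held 0.0075 to 0.11% of the FPKM in January larvae, against 0.0006 to 0.248% in May larvae, and 0.132 to 0.257% in January adults, against 0.0104 to 0.0515% in May adults. Their part in the results was not tested. In whole insects, fewer cells of a type and less RNA per cell cannot be told apart.

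In larvae, TAF12 and GTF2F1 were up-regulated in January. Their mean FPKM as deposited was 25.2 times and 28.5 times that of May larvae. Under median-of-ratios scaling the means were 15.5 FPKM in January larvae, against 1.73 in May larvae, for TAF12. For GTF2F1 they were 10.8 FPKM, against 1.18. On the log2(FPKM + 1) scale, which understates the change of low unigenes, the difference as deposited was 3.54 for TAF12 (SE 0.40, limma, Benjamini-Hochberg adjusted p = 0.00126) and 3.30 for GTF2F1 (SE 0.51, adjusted p = 0.00254). TAF6 differed by 0.01 (95% confidence interval −0.90 to 0.91, adjusted p = 0.991). Thus 2 of the 3 unigenes passed the thresholds, both as higher and without overlap of the groups, where 32.0% of all 11635 unigenes tested were called higher and 53.4% lay higher without overlap. As the study chose the 3 on this contrast in these libraries, the count is no independent evidence of a direction. GTF2F1 entered the test only through its January libraries, as did TAF12 but for May larva 3, which just reached 1.0 FPKM.

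Most unigenes lay higher in January larvae, with a median difference of 1.26 on the log2 scale over all tested. Relative to that median, TAF12 was at 2.28, GTF2F1 at 2.05 and TAF6 at −1.25. Median-of-ratios scaling brought the median of all down to 0.30. Under it TAF12 (2.596, limma, adjusted p = 0.00261) and GTF2F1 (2.49, adjusted p = 0.00933) were still called, and TAF6 was at −0.98 (adjusted p = 0.0445), with 1.195 to 1.72 scaled FPKM in January larvae, against 2.94 to 5.36 in May larvae. The sign of the larval TAF6 difference therefore hung on the scaling. The call for GTF2F1 was lost when January larva 3 (limma, adjusted p = 0.0107), May larva 1 (0.0126) or May larva 2 (0.0113) was left out, and neither unigene was called without both January larva 3 and May larva 1 (adjusted p = 0.0232 for TAF12 and 0.0319 for GTF2F1). Without those larvae the differences were 3.62 for TAF12 and 3.35 for GTF2F1, and none of the 11635 unigenes was called.

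In adults, none of the 3 unigenes passed the thresholds between January and May with limma, although each had an unadjusted p under 0.05, as did 55.7% of all tested. Of the 23423 unigenes tested, 28.3% were called higher and 4.30% lower. Their mean FPKM in January adults was 3.66 times that of May adults for TAF12 and 3.29 times for GTF2F1, and May adults averaged 4.28 times the TAF6 level of January adults. The log2 differences were 1.63 for TAF12 (SE 0.62, limma, Benjamini-Hochberg adjusted p = 0.0513), 1.5 for GTF2F1 (SE 0.54, adjusted p = 0.0424) and −1.61 for TAF6 (SE 0.47, adjusted p = 0.0181). The TAF12 groups overlapped. GTF2F1 lay higher and TAF6 lower without overlap, as did 45.2% and 13.0% of all unigenes tested. The study called all 3 in both stages, with DESeq2 on read counts at the same thresholds. Why the calls differ, also for TAF6 in larvae, was not tested.

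The median of all adult differences was 1.02, so TAF12 (0.61 above it) and GTF2F1 (0.49 above it) lay near the bulk of unigenes. TAF6 was at −2.62 relative to the median, and 7.0% of the unigenes tested were lower. Under median-of-ratios scaling TAF6 passed as lower in January adults (−1.53, limma, adjusted p = 0.00901). Without January adult 3 TAF12 passed as higher (2.19, limma, adjusted p = 0.00571). In that fit 8204 of 23423 unigenes were called higher, against 6624 with all libraries, and the median of all was 1.265. With equal FPKM sums without the 20 most abundant unigenes, the TAF12 difference was 0.97 and that of GTF2F1 0.85. In January adult 3 the 20 most abundant unigenes held 37.2% of the FPKM, against 14.9% and 20.4% in the other 2 January adults. In the May adults they held 47.6, 33.7 and 48.7%.

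Ratios of 2 unigenes within 1 library do not depend on how libraries are scaled. The FPKM of TAF12 was 10.6, 12.99 and 9.28 times that of TAF6 in January larvae, against 0.576, 0.264 and 0.606 times in May larvae. In adults the ratio was 56.5, 17.3 and 12.6 in January, against 0.991, 2.45 and 1.501 in May. All 6 January insects thus carried at least 9.28 times as much TAF12 as TAF6 signal per length, and no May insect more than 2.45 times. GTF2F1 over TAF6 lay between 5.72 and 8.20 in January larvae, against 0.025 to 0.568 in May larvae, and between 9.65 and 36.5 in January adults, against 0.717 to 1.46 in May adults. The ratio of TAF12 to GTF2F1 was between 1.01 and 2.27 in 11 insects and 10.6 in May larva 2, where GTF2F1 was at 0.08 FPKM. The ratios are given without a test, because the unigenes came from the season contrast. They hold for these unigenes only. Whether reads were divided between TAF6 or GTF2F1 and other unigenes of the same read cluster was not tested.

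**Figure D2:**
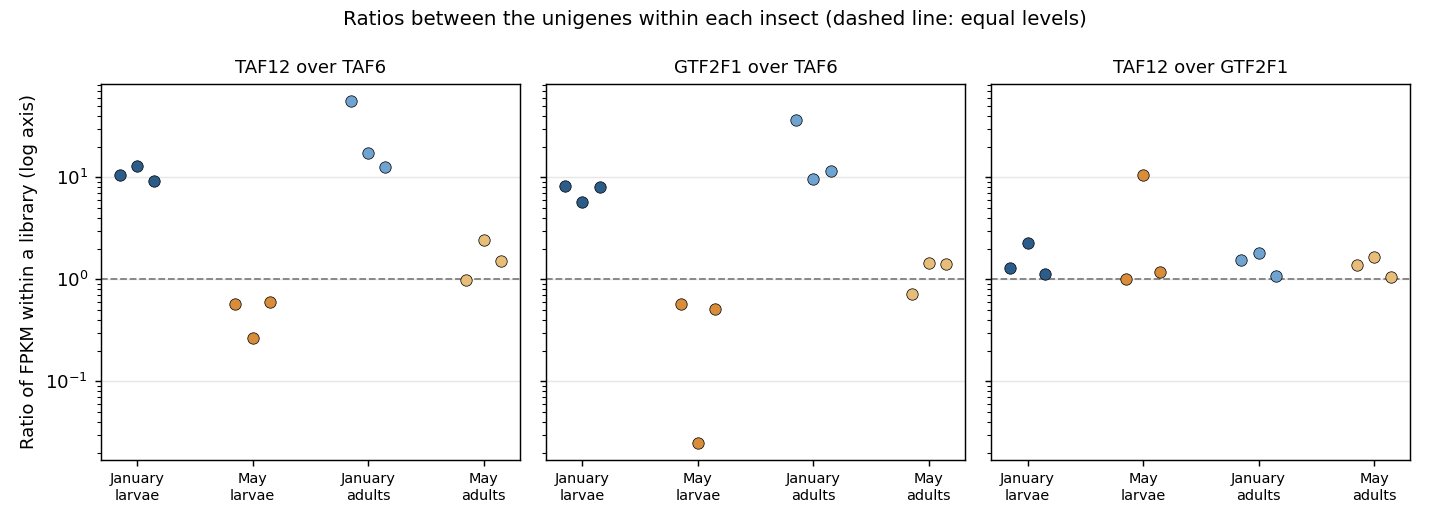
Ratio of FPKM between pairs of the 3 unigenes within each insect (log axis), by group. Points are single insects and the dashed line marks equal levels. TAF12 over TAF6 is 9.28 or more in the 6 January insects and 2.45 or less in the 6 May insects, and TAF12 over GTF2F1 stays between 1.01 and 2.27 except in May larva 2.

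Larvae and adults were then compared within a month, a contrast the study did not use to choose the unigenes, although the libraries are the same ones. In January no difference was detected for any of them. The log2 difference, larvae over adults, was −0.68 for TAF12 (95% confidence interval −2.23 to 0.88), −0.70 for GTF2F1 (−2.29 to 0.89) and 0.24 for TAF6 (−1.07 to 1.55), with limma, Benjamini-Hochberg adjusted p-values of 0.557, 0.548 and 0.831. Only 16 of 23533 unigenes (0.0680%) were called here, while 5723, and none of the 3, had an unadjusted p under 0.05. When January larva 3 was left out, 295 unigenes were called higher and 7362 lower, and still none of the 3 was among them.

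In May, TAF12 and GTF2F1 were lower in larvae. May adults averaged 12.4 times the TAF12 level and 14.3 times the GTF2F1 level of May larvae, and 3.27 times their TAF6 level. The log2 differences, larvae over adults, were −2.59 for TAF12 (SE 0.37, limma, Benjamini-Hochberg adjusted p = 0.003), −2.51 for GTF2F1 (SE 0.38, adjusted p = 0.00348) and −1.38 for TAF6 (SE 0.38, adjusted p = 0.026). Thus 2 of the 3 passed as lower, where 27.4% of the 15628 unigenes tested did, and all 3 lay lower without overlap, as did 45.5% of those tested. GTF2F1 passed the filter through the adult libraries only, as did TAF12 but for May larva 3, which just reached 1.0 FPKM. The same May larvae set the season difference on which the unigenes were chosen.

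The median of all differences in May was −0.98, which puts TAF12 at −1.61, GTF2F1 at −1.52 and TAF6 at −0.39 relative to it. Under median-of-ratios scaling, which moved the median to −0.14, TAF12 (−1.71, limma, adjusted p = 0.0125) and GTF2F1 (−1.76, adjusted p = 0.0319) were no longer called, TAF6 was at −0.35, and of the unigenes called 50% were higher, against 14.7% as deposited. Scaled in this way, TAF6 overlapped between the stages, at 2.94 to 5.36 FPKM in May larvae, against 4.07 to 6.96 FPKM in May adults. The calls for TAF12 and GTF2F1 were also lost without May larva 2, May larva 3 or May adult 3 (limma, adjusted p from 0.0116 to 0.0173). The one for GTF2F1 was also lost without May adult 2 (limma, adjusted p = 0.0119).

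Over both months together, larvae were at −1.63 for TAF12 (SE 0.38, limma, Benjamini-Hochberg adjusted p = 0.0141), −1.60 for GTF2F1 (SE 0.38, adjusted p = 0.0151) and −0.57 for TAF6 (SE 0.35, adjusted p = 0.229) relative to adults on the log2 scale. None passed, where 5.58% of 28117 unigenes did. Of the 3, 2 had an unadjusted p under 0.05, as did 37.6% of all unigenes tested. Without January adult 3 TAF12 (limma, adjusted p = 0.00159) and GTF2F1 (0.00533) passed as lower in larvae. In that fit 2919 of the 28117 unigenes were called lower, against 1113 with all libraries. The season difference was not shown to be unlike in the stages: the larval minus the adult log2 difference was 1.91 for TAF12 (95% confidence interval 0.26 to 3.57), 1.80 for GTF2F1 (0.16 to 3.45) and 1.61 for TAF6 (0.09 to 3.13), with limma adjusted p-values of 0.148, 0.171 and 0.184, where 1.62% of unigenes were called. Under median-of-ratios scaling these differences were 1.02, 1.04 and 0.54, and none was called. With equal FPKM sums without the 20 most abundant unigenes they were 2.475, 2.37 and 2.10. None was called there either (limma, adjusted p = 0.0411, 0.0421 and 0.0646). As deposited, the 3 unadjusted p-values were 0.0269, 0.0347 and 0.0394, and 24.5% of all unigenes had one under 0.05.

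**Figure D3:**
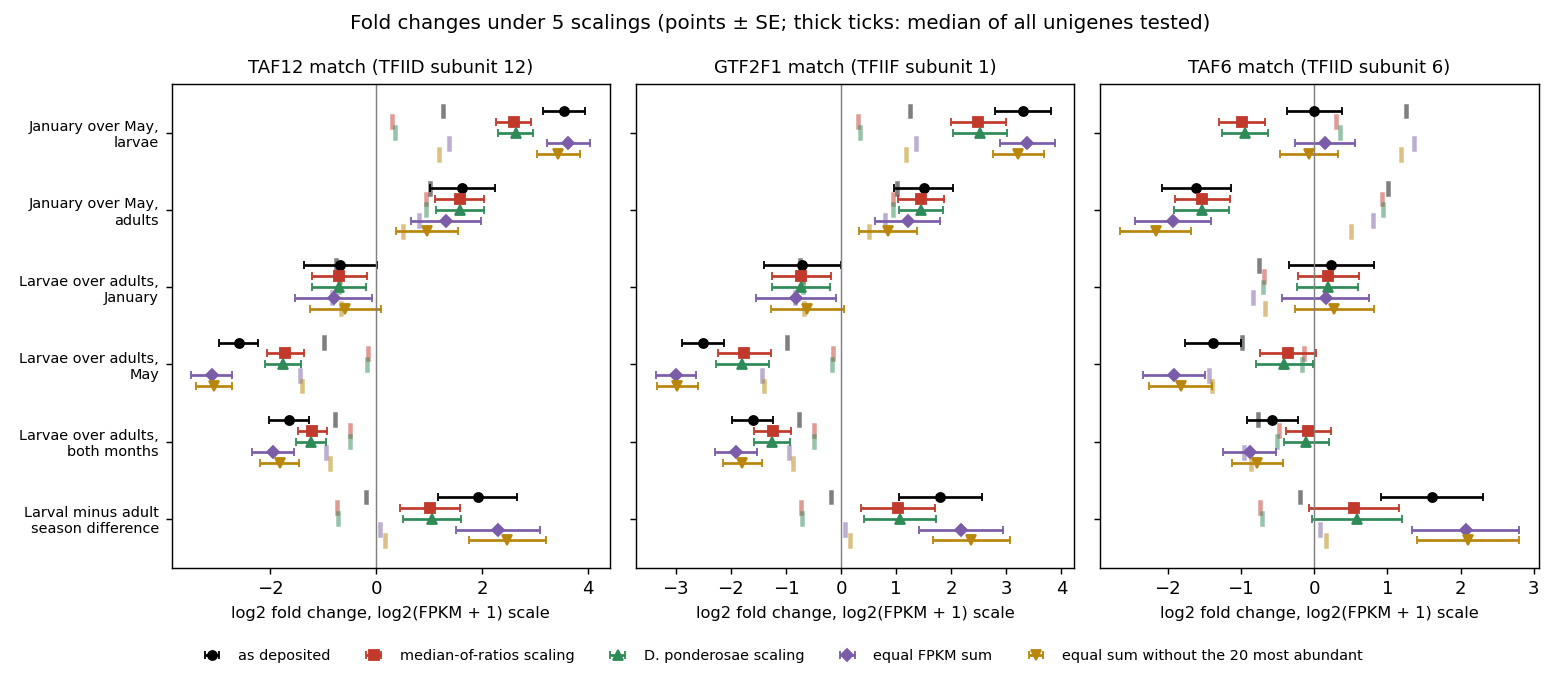
Log2 differences (log2(FPKM + 1) scale, points ± SE from limma) of the 3 unigenes in the 6 comparisons, as deposited and under 4 other scalings of the libraries. Thick ticks mark the median of all unigenes tested under the same scaling. TAF12 and GTF2F1 lie right of the median for January over May in larvae under each scaling (3.54 and 3.30 against 1.26 as deposited), and TAF6 lies left of it in both stages.

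Other parts of the RNA polymerase II machinery were followed through 10 unigenes named as such in the part of the annotation at hand, all of which could be tested. In larvae 2 of the 10 were up-regulated in January and none was down-regulated, where 32.0% of all unigenes tested were called higher and 3.63% lower, with a median log2 difference of 0.38, against 1.26 over all unigenes tested. In adults none of the 10 was called, where 32.6% of all tested were, with a median of 0.09, against 1.02 over all. The median of the list thus lay below that of all unigenes in both stages, and did so under each of the 4 other scalings. Of the 10, 4 had an unadjusted p under 0.05 in each stage, against 59.9% of all unigenes tested in larvae and 55.7% in adults. Median-of-ratios scaling ended both larval calls and left TBP as the single one, lower in January larvae (−1.98, limma, adjusted p = 0.0049), with a list median of −0.79, against 0.30 over all.

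Within TFIID, TAF13, another histone-fold subunit, was at 64.7, 38.4 and 44.7 FPKM in January larvae, against 3.72, 8.21 and 12.1 FPKM in May larvae. It rose by 2.57 on the log2 scale (limma, Benjamini-Hochberg adjusted p = 0.00451; 1.25 and 0.0428 under median-of-ratios scaling). In adults it was at 77.8, 66.1 and 29.5 FPKM in January, against 12.7, 23.6 and 15.95 FPKM in May (1.60, adjusted p = 0.0344, not called). As deposited, TAF13 therefore showed the same order of group means as TAF12, but its mean in January larvae was 6.16 times that of May larvae, against 25.2 times for TAF12. TBP, the DNA-binding subunit of TFIID, was at 15.2, 12.4 and 9.82 FPKM in January larvae, against 20.4, 24.9 and 14.4 FPKM in May larvae (−0.62, adjusted p = 0.186). Adults had 10.4, 9.94 and 12.1 FPKM in January, against 5.43, 3.42 and 3.92 FPKM in May (1.18, adjusted p = 0.0632). TBP was higher in May larvae than in May adults (1.98, adjusted p = 0.00449; not called with equal FPKM sums, 1.35 and 0.0448), opposite in sign to TAF12, TAF6 and GTF2F1. Its larval minus adult season difference was −1.80 (limma, adjusted p = 0.0642), and was called lower under median-of-ratios scaling (−3.10, adjusted p = 0.0093).

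The subunit 2 match of TFIIE (GTF2E2), the factor that brings in TFIIH after TFIIF and the polymerase, was at 42.5, 16.8 and 32.1 FPKM in January larvae, against 3.23, 10.2 and 6.51 FPKM in May larvae (2.06, limma, adjusted p = 0.0155). Adults had 65.7, 46.4 and 19.1 FPKM in January, against 10.3, 9.90 and 8.98 FPKM in May (1.90, adjusted p = 0.0191). Neither difference passed the threshold as deposited. The groups did not overlap in either stage, as for the 53.4% of larval and 45.2% of adult unigenes that lay higher without overlap. Under median-of-ratios scaling the larval GTF2E2 difference was 0.76 (limma, adjusted p = 0.16) and the adult one passed as higher (1.84, adjusted p = 0.00727). RPB1, the largest subunit of RNA polymerase II, was at 19.9, 23.98 and 24.9 FPKM in January larvae, against 3.30, 1.57 and 4.12 FPKM in May larvae, and rose by 2.63 (adjusted p = 0.00239; 1.42 and 0.0601 under median-of-ratios scaling). In adults it was at 7.81, 15.9 and 18.9 FPKM in January, against 27.4, 2.96 and 16.9 FPKM in May (0.19, adjusted p = 0.858), with the May adults spread over most of the range.

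The remaining 6 of the list were MED16 and MED27 of Mediator, cyclin-C of its kinase module, the SAGA acetyltransferase match KAT2B, the pausing factor subunit NELFE and the Integrator endonuclease INTS11. None was called between months in either stage, with log2 differences, as deposited, of −0.01 to 1.203 in larvae and −1.63 to 0.69 in adults. NELFE was the one closest to TAF6 in adults, at 7.54, 5.72 and 1.75 FPKM in January, against 12.1, 20.6 and 15.6 FPKM in May (−1.63, limma, adjusted p = 0.0393). It was lower in May larvae than in May adults (−1.90, limma, adjusted p = 0.00773, and −0.72 and 0.22 under median-of-ratios scaling). With TBP it was the only one of the 10 called between the stages in May as deposited. KAT2B (−1.49, limma, adjusted p = 0.0113) was called lower in May larvae with equal FPKM sums (−2.12, adjusted p = 0.00198). It was also called without the 20 most abundant unigenes (−1.97, adjusted p = 0.00445), and not under median-of-ratios scaling (−0.29, adjusted p = 0.635). In January, over both months and for the larval minus adult difference none of the 10 was called as deposited. Under median-of-ratios scaling TBP was called, as higher in larvae over both months (1.69, limma, adjusted p = 0.00287) and for the larval minus adult difference given above.

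**Figure D4:**
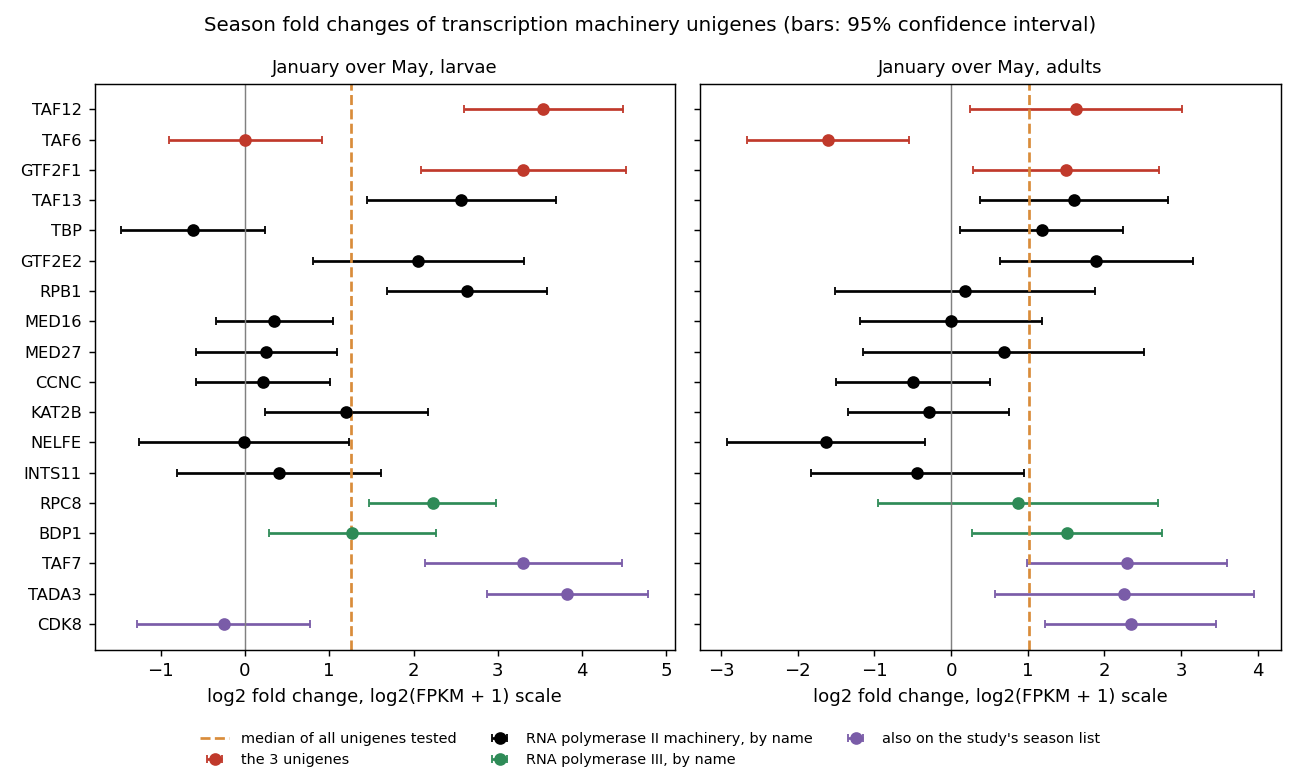
Log2 differences, January over May (log2(FPKM + 1) scale, points with 95% confidence intervals from limma), of the 3 unigenes, 10 RNA polymerase II machinery unigenes, 2 RNA polymerase III unigenes and 3 more of the study's season list, in larvae (left) and adults (right). The dashed line is the median of all unigenes tested, at 1.26 in larvae and 1.02 in adults. TAF6 and NELFE lie left of 0 in adults, at −1.61 and −1.63.

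Further machinery unigenes stood on the study's season list, so that their season direction is no independent evidence either. TAF7, a TFIID subunit that in human cells binds TAF1, was at 22.5, 7.44 and 15.4 FPKM in January larvae, against 0.63, 0.78 and 0.17 FPKM in May larvae, and was called in larvae (3.30, limma, adjusted p = 0.00227) and in adults (2.29, adjusted p = 0.00938; 0.0206 with equal FPKM sums). TADA3, of the acetylation module of SAGA, was at 29.5, 21.9 and 17.7 FPKM in January larvae, against 0.91, 0.24 and 0.93 FPKM in May larvae, and was called in larvae (3.83, adjusted p = 0.00117) and not in adults (2.26, adjusted p = 0.0312). CDK8, the kinase of Mediator, was called in adults (2.34, adjusted p = 0.00463; 0.0125 with equal FPKM sums) and not in larvae (−0.25, adjusted p = 0.654; −1.68 and 0.0105 under median-of-ratios scaling). TAF7 and TADA3 were under 1 FPKM in each May larva, as GTF2F1 was and TAF12 nearly was, so that both entered the larval test through the January libraries only, whereas CDK8 was at 103 to 155 FPKM there.

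RNA polymerase III, which transcribes transfer RNA genes, was represented by 2 unigenes. Its subunit RPC8 was at 7.74, 5.94 and 6.48 FPKM in January larvae, against 0.42, 0.85 and 0.69 FPKM in May larvae, and rose by 2.23 (limma, adjusted p = 0.00196). It entered that test through the January libraries only. The TFIIIB component BDP1 differed by 1.27 in larvae (limma, adjusted p = 0.0374; 0.21 and 0.732 under median-of-ratios scaling) and by 1.51 in adults (adjusted p = 0.0443), and RPC8 by 0.88 in adults (adjusted p = 0.403). RPC8 was also lower in May larvae than in May adults (−2.48, limma, adjusted p = 0.00404; −1.69 and 0.0158 under median-of-ratios scaling), a test it entered through the adult libraries only.

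The likeness of patterns was described by Pearson's r of log2(FPKM + 1) over the 12 libraries, which fall into 4 groups and share their scaling, so r carries no test. Between TAF12 and GTF2F1 r was 0.98 as deposited and 0.958 after median-of-ratios scaling. TAF6 had r of −0.046 with TAF12 and −0.059 with GTF2F1 as deposited, and −0.727 and −0.714 after scaling. Among 1029 named unigenes, those most like TAF12 were coiled-coil domain-containing protein 28A (0.992), ubiquitin-protein ligase E3C (0.99) and dihydroorotate dehydrogenase, an enzyme of pyrimidine synthesis (0.99). Those most like GTF2F1 were pre-mRNA-processing factor 40 homolog A, a splicing protein (0.993), dihydroorotate dehydrogenase (0.991) and the protein SDE2 homolog (0.989). TAF6 was most like a eukaryotic translation initiation factor 4 gamma 3-like unigene (0.957), calsyntenin-1 (0.955) and charybde-like (0.94). After median-of-ratios scaling these r were 0.797, 0.943 and 0.921, while those of the unigenes named for TAF12 and GTF2F1 were 0.97 or more. The neighbours of TAF12 and GTF2F1 thus had one unigene in common, and those of TAF6 were others.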

How the data were processed

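Each of the 12 libraries was made from 1 whole insect with poly(A) selection and read in pairs. The authors assembled the reads without a genome, mapped them back with Bowtie2 (2.3.5.1), estimated abundance by RSEM (1.2.31) and deposited FPKM with 2 decimals for 58956 unigenes. No scaling between libraries is stated. FPKM hold no read numbers, so absolute depth is unknown. What 1 fragment was worth, taken from steps among low values (searched within 0.5 on the log2 scale), was 0.84 to 1.27 times that in January larva 1.

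Groups came from the labels, months from the study's methods. log2(FPKM + 1) was fitted with limma 3.58.1 (R 4.3.3, trended variance) for unigenes at 1 FPKM or more in at least 3 libraries of the comparison. Calls needed a Benjamini-Hochberg adjusted p under 0.01 over all unigenes tested, two-sided, and an absolute log2 difference of at least 1. The 12-library fits served the stage average and the larval minus adult difference. p-values measure the spread between the insects sampled. The code was tested on simulated data. Python 3.11.15 drew the figures.

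Named were the 3 unigenes, other unigenes of their read clusters, machinery unigenes by annotation or from the study's list, and the 3 most alike per unigene. Members and lists were chosen with earlier results of these data known. Alternatives were another added constant, no filter, 4 scalings, other thresholds, a replicate block, 1 fit of all libraries and left-out libraries. The test planned for counts was replaced by limma, since the files hold FPKM.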

Additional observations from a re-analysis of the deposited data

How the results depend on the processing

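In larvae, January against May, the 2 of 3 unigenes called became 0 without the filter on low values and 0 with the replicate number as a block. The number was 0 without both January larva 3 and May larva 1, and 1 to 2 when 1 library was left out. Of all unigenes, 320 of 46441 were called higher without the filter, against 3727 of 11635 with it. None of the 11635 was called with the block or without both larvae. In adults 0 were called, against 1 (TAF6) under median-of-ratios scaling, under that scaling over *D. ponderosae* matches and under equal FPKM sums without the 20 most abundant unigenes, 2 at an adjusted p under 0.05, and 0 to 1 with 1 library left out. For larvae against adults in May, 2 became 1 without the filter, 0 under both median-of-ratios scalings and 0 with the replicate block. With 1 library left out the number was 0 to 2. With the block 14 of 15628 unigenes were called lower, against 4280 without it, and without the filter 1702 of 44805. Over both months 0 became 1 with 0.1 added in place of 1 and without January larva 3 and May larva 1, 2 under equal FPKM sums, with or without the 20 most abundant unigenes, 2 at an adjusted p under 0.05, and 0 to 2 with 1 library left out. The larval TAF6 difference of 0.01 turned to −0.98 (median-of-ratios scaling), −0.94 (*D. ponderosae* matches), −0.066 (equal sums without the 20 most abundant) and −0.17 (without January larva 3 and May larva 1), and lay between −0.20 and 0.28 with 1 library left out. Why these counts and the TAF6 difference changed was not tested. In January, and for the larval minus adult difference, 0 were called under all alternatives. Insects with the same number were not paired (correlations of −0.645 to 0.418), so the block shares only a number; it changed no other count.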

Other observations

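Unigenes of the same read cluster as TAF6 or GTF2F1 carried no name in the annotation at hand. TRINITY_DN22147_c0_g2, clustered with TAF6, was at 139 to 221 FPKM in January larvae, against 192 to 415 FPKM in May larvae, and at 82.4 to 124 FPKM in January adults, against 91.5 to 115 FPKM in May adults, so that it was far more abundant than TAF6 in every library. TRINITY_DN22147_c0_g4 was listed at 0 in the 3 May larvae and at 0.74 to 8.56 FPKM in January larvae. It was at 1.26 to 6.99 FPKM in January adults, against 1.73 to 3.03 FPKM in May adults. TRINITY_DN22147_c0_g1 was at 0.31 to 10.1 FPKM in January larvae, against 1.94 to 12.9 FPKM in May larvae. In adults it was at 0.07 to 9.01 FPKM in January, against 9.04 to 22.0 FPKM in May (−1.91, limma, adjusted p = 0.0742, not called). TRINITY_DN23208_c0_g2, clustered with GTF2F1, did not exceed 1.33 FPKM in any library. Whether reads were divided between these unigenes and TAF6 or GTF2F1 was not tested.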
